A study of Rattus norvegicus with 12 samples.

Results

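Transcripts of 9 rat genes were followed through the stages of chemically induced liver cancer. These genes write or recognise repressive marks on DNA and histones, or take acetyl groups off histones. The genes were Dnmt1, Dnmt3a, Dnmt3b, Uhrf1, Ezh2, Eed, Suz12, Hdac1 and Hdac2, and every probe set that the platform's annotation assigns to exactly 1 of these symbols was taken. This gave 13 probe sets of 31042 tested, and 9 genes of 14217. Ezh2 had 3 probe sets, Dnmt3a and Hdac1 had 2 each, and the other 6 genes had 1 each. The platform was the Affymetrix Rat 230 2.0 array with 1 sample per array, and the 12 arrays fall into 4 groups of 3, all of adult male Sprague-Dawley rats. Controls received distilled water, and all other rats received diethylnitrosamine (DEN), an alkylating liver carcinogen, as weekly intraperitoneal doses of 70 mg/kg over 10 weeks. The hepatitis group was killed in week 5, the cirrhosis group in weeks 13 to 14 and the hepatocellular carcinoma (HCC) group in weeks 23 to 24. The labels do not say whether weeks run from the start or the end of DEN, and give no time for the controls. If weeks run from the start, the hepatitis group was killed before the 10 weeks of dosing were over. Stage, age, time since DEN and DEN dose received therefore cannot be told apart. The tissue label reads liver for all 12 samples, whereas the series text speaks of HCC tissue for the last group. The labels do not say that the 3 arrays of a group are 3 rats, so a p-value here reflects the spread among samples, and that spread may be technical.

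Vertebrate DNA methylation is copied at each cell division by the maintenance methyltransferase DNMT1, which the ring-finger protein UHRF1 brings to hemimethylated CpG sites, while DNMT3A and DNMT3B place methyl groups on unmethylated DNA. Polycomb repressive complex 2 (PRC2) methylates lysine 27 of histone H3 through its catalytic subunit EZH2 and needs the subunits EED and SUZ12 to be active. HDAC1 and HDAC2 are closely related enzymes that take acetyl groups off histones within the NuRD, Sin3 and CoREST complexes. The intact adult liver divides little, and transcripts of the maintenance machinery are known from other tissues to be most abundant in dividing cells.

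The promoters of these genes were searched for 4 letter strings of the type that E2F factors bind, TTTCCCGC, TTTCGCGC, TTTGCCGC and TTTGGCGC, on both strands, in RefSeq windows of 300 bases (250 before and 50 after each transcription start, assembly GRCr8). Of the members 8 had a window, Uhrf1 had 3 starts, and Dnmt3b had none in the table. A string was found in 4 of these 8 genes, Dnmt1, Uhrf1, Ezh2 and Suz12. The background was 651 of all 27457 genes (2.4%) and 716 of 33469 windows (2.1%). Each string holds a CpG, and this background was not matched for CpG content. The windows with a string held 17 (Dnmt1), 35 (Uhrf1), 30 (Ezh2) and 38 (Suz12) CpGs. Those without held 21 (Dnmt3a), 15 (Eed), 27 (Hdac1), 33 (Hdac2), and 8 and 13 (the other Uhrf1 starts). Whether the members exceed windows of like CpG content was not tested. The letters CCAAT occurred in 6 of the 8 genes and in 39.6% of all genes. The 4 genes that hold a string are among those called higher in HCC below, and a part of the strings in those calls was not tested. Their sequences are printed. Each is given 5′ to 3′ on the gene's strand, with the string in capitals. The first pair are the 250 bases before the third Uhrf1 start and before the Suz12 start, and the second pair are short stretches just inside the Dnmt1 and Ezh2 transcripts. Dnmt3a and Eed, also called higher, held none of the 4 E2F-type strings in their windows. A match is a description of these letters only, and the members were not chosen by it.
Uhrf1 (chr9:1222936-1223185, + strand): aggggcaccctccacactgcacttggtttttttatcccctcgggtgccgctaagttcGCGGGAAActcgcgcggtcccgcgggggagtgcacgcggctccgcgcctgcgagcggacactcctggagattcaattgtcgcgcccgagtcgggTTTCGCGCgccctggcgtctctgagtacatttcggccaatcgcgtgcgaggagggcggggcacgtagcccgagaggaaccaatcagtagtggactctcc
Suz12 (chr10:65464719-65464968, + strand): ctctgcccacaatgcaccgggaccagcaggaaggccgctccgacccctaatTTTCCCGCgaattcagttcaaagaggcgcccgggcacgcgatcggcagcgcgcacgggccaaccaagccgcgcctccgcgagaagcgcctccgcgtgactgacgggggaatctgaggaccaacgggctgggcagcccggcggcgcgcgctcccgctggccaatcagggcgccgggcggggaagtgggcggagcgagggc
Dnmt1 (chr8:27762799-27762826, - strand): gtttccgcgcGCGCGAAAaagccggggt
Ezh2 (chr4:77687157-77687184, - strand): ggctgctgcgTTTGGCGCtcggtccggt
The Uhrf1 promoter held 2 strings, at -193 to -186 and at -99 to -92 from the start. The Suz12 string lay at -199 to -192. The strings of Dnmt1 and Ezh2 began 26 and 10 bases into the transcript.

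The deposited values were intensities, with array medians of 28.62 to 30.87, and were analysed as log2(intensity + 16). The number of arrays limits the precision. The HCC arrays were set off from all others: on a first principal component with 58.6% of the variance they lay at 86.8, 45.1 and 96.1, against -29.5 to -12 for the rest. The log2 excess of the 3′ over the 5′ probe set of Gapdh, a sign of RNA integrity, was 1.35, 2.43 and 3.14 on the HCC arrays and 0.38 to 1.02 on the others. The median SD of a probe set was 0.144 in HCC, and 0.0652 to 0.0804 in the other groups. The mean log2 level of 8 hepatocyte markers ranged over 11.65 to 12.42 in HCC, against 12.65 to 12.85 on the remaining 9 arrays. This mean was thus high in every sample, but 4 of the 8 markers were called lower in HCC than in control. Cyp2e1 fell most, with 306, 762 and 319 in HCC against 5370, 5230 and 4770 in control. The part of these array values in the differences below was not tested. In bulk tissue, fewer cells of a type and less RNA per cell cannot be told apart.

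In HCC the maintenance and Polycomb genes were higher together. Against control, 7 of the 13 probe sets, from 6 of the 9 genes, were called higher (Dnmt1, Dnmt3a, Uhrf1, Ezh2 by 2 probe sets, Eed and Suz12), and 0 were called lower, or 1 at an unadjusted p under 0.05 (Hdac1 1396820_at). A probe set was called where limma's p, adjusted by Benjamini-Hochberg over the 31042 probe sets, was under 0.05. Over all probe sets 15.7% were called higher in this comparison and 14.1% lower. The median log2 difference was 0.62 over the 13 probe sets and 0.01 over all probe sets. Every HCC array lay above every control array on 7 of the 13 probe sets and on 20.9% of all probe sets. These were the 7 called ones, which the test picked from the same values, so the separation adds no support of its own. The same 7 of 13 had all 3 HCC arrays above the other 9 arrays, as had 12.5% of all probe sets.

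**Figure D1:**
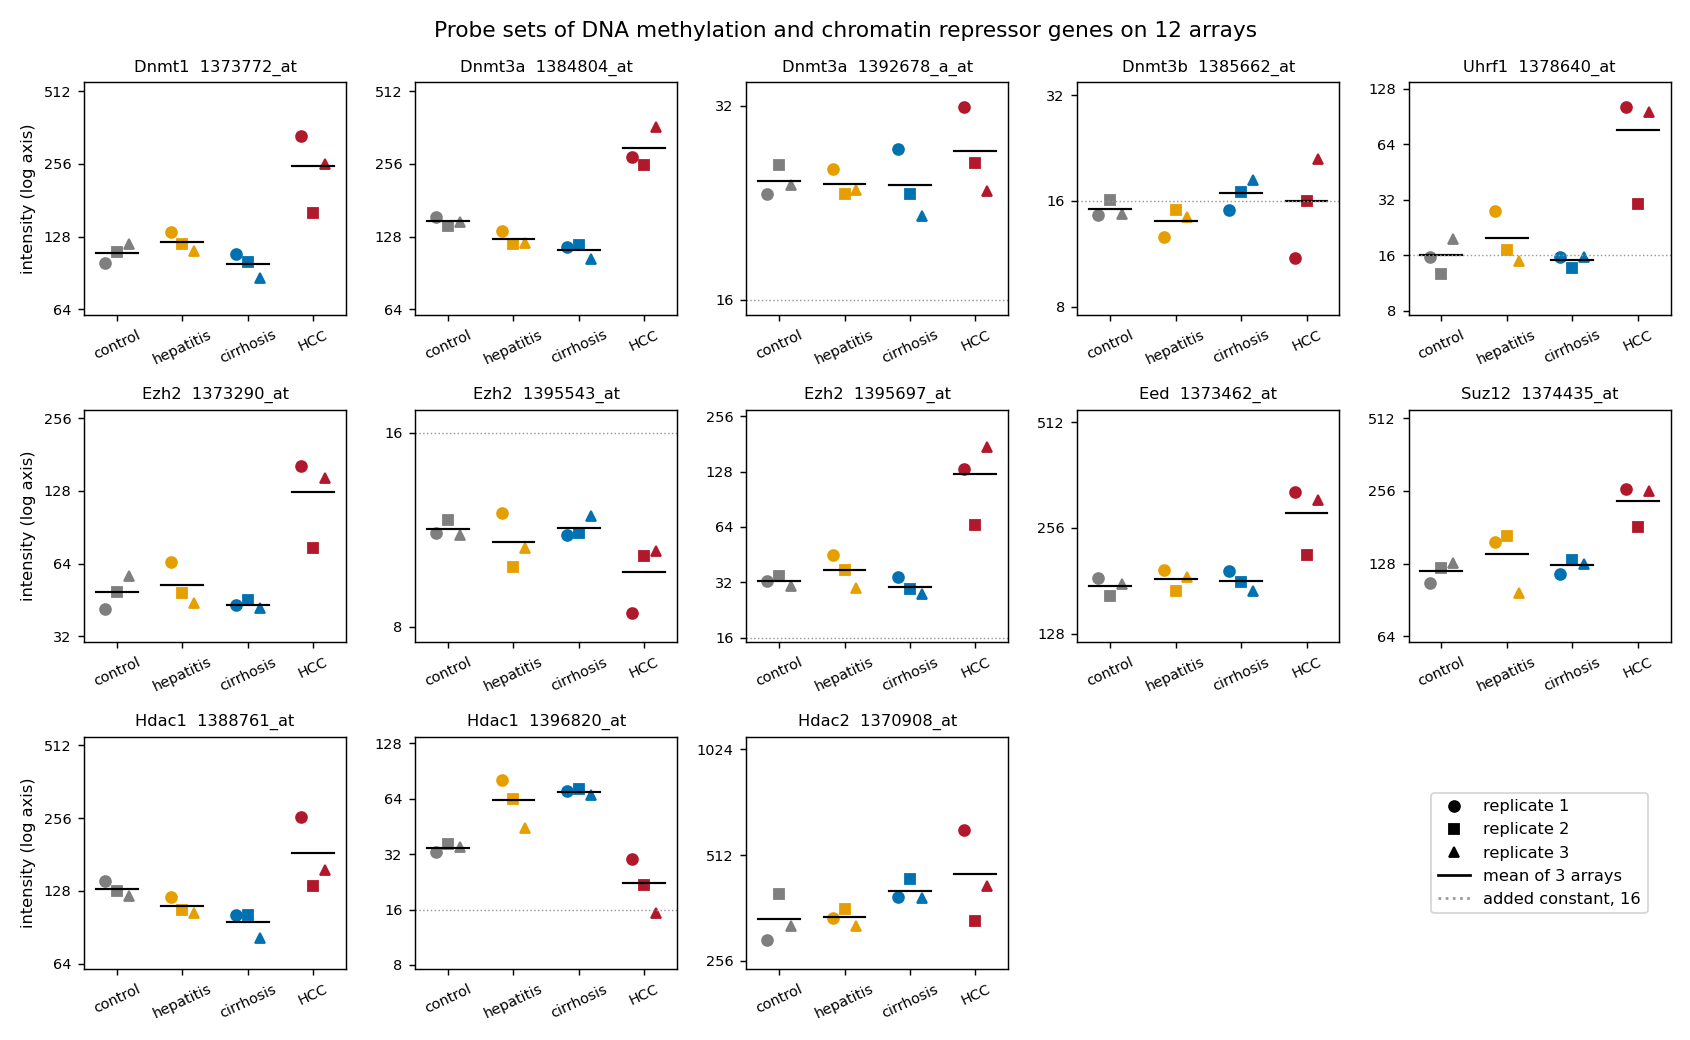
Intensity (log axis) of each of the 13 probe sets on the 12 arrays, by group and replicate, with the mean of the 3 arrays as a bar and the added constant of 16 as a dotted line. Dnmt1, Dnmt3a (1384804_at), Uhrf1, Ezh2 (1373290_at and 1395697_at), Eed and Suz12 have all 3 HCC points above every other point of their panel, while the 2 Hdac1 panels run in different directions.

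Uhrf1, the factor that recruits DNMT1 to newly replicated DNA, had intensities of 102.3, 30.2 and 96.3 in HCC, against 15.7, 12.7 and 19.6 in control. The second HCC array was well under the other 2 and still above all controls, which lay near the dim end of the array. Mean intensity was 76.3 ± 40 in HCC and 16 ± 3.49 in control (SD, n = 3 each). No ratio is given, because the control arrays at 15.7 and 12.7 were under 16. The log2 difference was 1.41 ± 0.31 (standard error), with a limma adjusted p of 0.00741. The added 16 is as large as the mean control signal and shrinks this difference, and at so dim a signal its true size is uncertain.

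Dnmt1, the maintenance methyltransferase itself, had 333.6, 160.7 and 255.8 in HCC, against 99.6, 110.3 and 118.8 in control. The groups did not overlap, and the second HCC array was again the lowest of its group. The ratio of means was 2.28 and the log2 difference 1.03 ± 0.2 (limma adjusted p = 0.00458).

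Of the de novo methyltransferases, Dnmt3a was higher in HCC by 1 of its 2 probe sets. Probe set 1384804_at read 272.6, 253.9 and 363.1 in HCC and 154.1, 142.1 and 147.2 in control. The second HCC array was again the lowest of its group, and the highest was 1.43 times as bright. The log2 difference of 0.92 ± 0.11 had the smallest adjusted p of the members in this comparison (limma, 0.00043). The other probe set, 1392678_a_at, read 31.8, 26.1 and 23.6 in HCC, against 23.3, 25.9 and 24.1 in control. These overlapped, and the log2 difference was 0.09 ± 0.07 (limma adjusted p = 0.411). Dnmt3b read 11, 16 and 21 in HCC, against 14.6, 16.1 and 14.7 in control, and was under 16 on 8 of the 12 arrays. Its log2 difference was 0.03, with a 95% interval of -0.19 to 0.25, so at this signal a large change of Dnmt3b would be hard to see.

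All 3 PRC2 core genes rose in HCC. Ezh2, the catalytic subunit, read 162, 74.2 and 145.4 in HCC on probe set 1373290_at, against 41.4, 48.9 and 56.9 in control. On probe set 1395697_at it read 132.2, 65.6 and 174.4 in HCC, against 32.4, 34.7 and 30.5 in control. Both separated the groups fully, with log2 differences of 1.09 ± 0.23 and 1.45 ± 0.25 (limma adjusted p = 0.00591 and 0.0024) and ratios of means of 2.59 and 3.82. The third Ezh2 probe set, 1395543_at, was under 16 on all 12 arrays and read 8.4, 10.3 and 10.5 in HCC, against 11.2, 11.7 and 11.1 in control, which is within the dim range and was not called (-0.09 ± 0.05, limma adjusted p = 0.184).

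Eed, which binds methylated lysine 27 and stimulates the complex, read 325, 214.8 and 307.2 in HCC, against 184.5, 163.5 and 177 in control. The log2 difference was 0.62 ± 0.13 (limma adjusted p = 0.00594), the smallest of the called members. Suz12, the scaffold subunit, read 260.7, 181.1 and 256.1 in HCC, against 106.9, 122.5 and 128.7 in control. It rose by 0.86 ± 0.19 on the log2 scale (limma adjusted p = 0.00721), a ratio of means of 1.95. For Eed and Suz12, too, the second HCC array was the lowest of its group.

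The histone deacetylase genes did not pass the test in HCC against control. Hdac2 read 605.1, 333.6 and 417.9 in HCC, against 293, 396.5 and 321.9 in control, and the groups overlapped. Its log2 difference was 0.38, with a 95% interval of -0.03 to 0.79 (limma adjusted p = 0.159). The Hdac1 probe sets pointed opposite ways. Probe set 1388761_at read 258.7, 134.6 and 155.7 in HCC and 140, 128.2 and 122.1 in control, with a difference of 0.4 ± 0.19 (limma adjusted p = 0.149). Probe set 1396820_at read 30, 21.8 and 15.3 in HCC and 32.7, 36.3 and 35 in control, with all HCC arrays below all controls and a difference of -0.42 ± 0.17 (limma adjusted p = 0.0907). These results turned on single arrays: without HCC replicate 2, Hdac2 at 0.57 and Hdac1 1388761_at at 0.57 were called (limma adjusted p = 0.0231 and 0.0335), and Hdac1 1396820_at was called at -0.56 without HCC replicate 1 and at -0.42 without hepatitis replicate 3 (0.0336 and 0.0399).

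**Figure D2:**
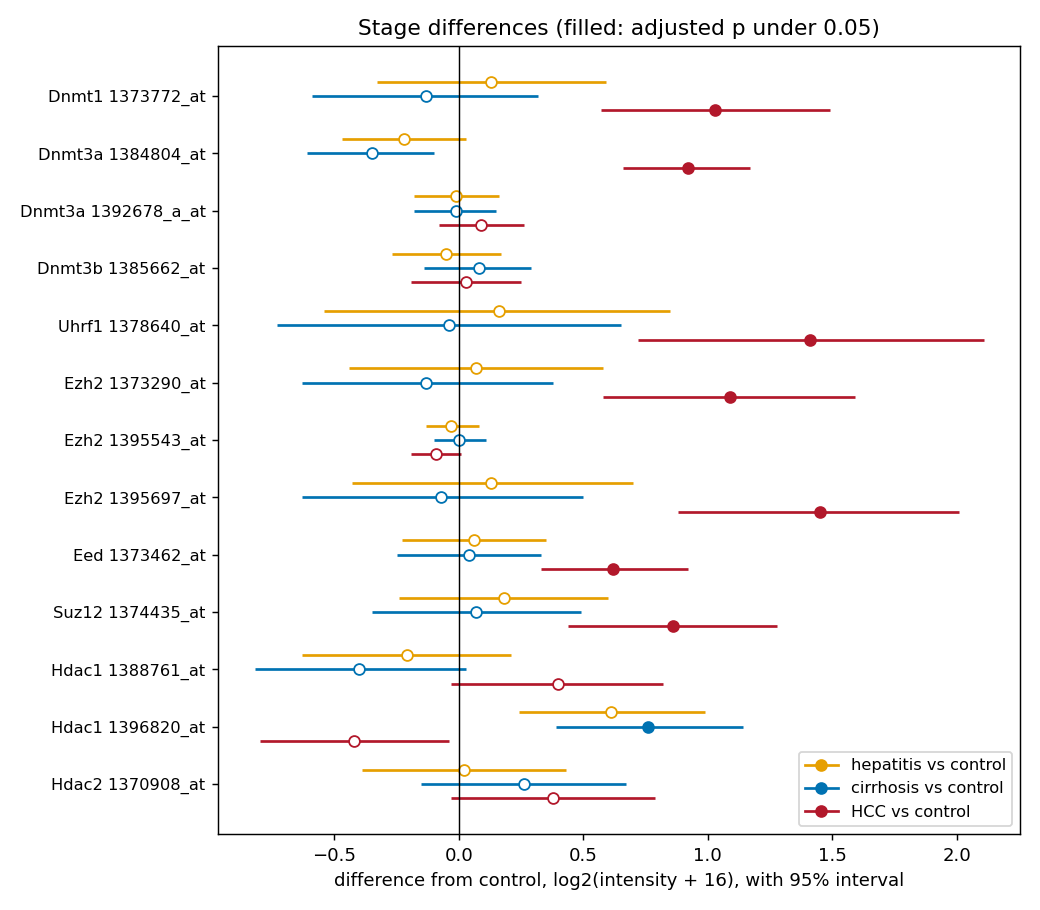
Differences from control of hepatitis, cirrhosis and HCC for each of the 13 probe sets on the log2(intensity + 16) scale, with 95% intervals from limma. Filled points have an adjusted p under 0.05: 7 of the HCC points and 1 cirrhosis point (Hdac1 1396820_at, 0.76) are filled, and all 3 differences of a probe set share its control arrays.

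The fit shares 1 spread per probe set over all 12 arrays, although the HCC arrays of most members varied more, with log2 SDs of 0.07 to 0.76. Hepatitis varied more than HCC for Suz12 (log2 SD 0.38 against 0.28) and Hdac1 1396820_at (0.34 against 0.28). With only HCC and control in the fit, 3 of the 7 calls were kept (Dnmt3a 1384804_at, Ezh2 1395697_at and Suz12). The other 4 had limma adjusted p of 0.0504 (Dnmt1), 0.0548 (Ezh2 1373290_at), 0.0558 (Eed) and 0.0639 (Uhrf1). Over all 31042 probe sets the calls in either direction fell as well, from 9237 to 4994.

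In the earlier stages few members were called, a share near that of all probe sets. In hepatitis 0 of the 13 probe sets passed limma's test, while 2.95% of all probe sets did. At an unadjusted p under 0.05 there was 1 (15.8% of all probe sets). In cirrhosis 1 of 13 was called, Hdac1 1396820_at, while 3.62% of all probe sets were, and 1.59% were called higher. Both comparisons share the control arrays.

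For the members other than Dnmt3a and Hdac1 the arrays of both early stages overlapped with the controls. Dnmt1 read 99.6 to 118.8 in control, and its hepatitis arrays read 111.5 to 133.6 and its cirrhosis arrays 86.4 to 108.5. Uhrf1 read 12.7 to 19.6 in control, with hepatitis at 14.8 to 27.9 and cirrhosis at 13.7 to 15.7. Ezh2 1373290_at read 41.4 to 56.9 in control, with hepatitis at 44.1 to 64.9 and cirrhosis at 41.8 to 45.2. The log2 differences from control of these 3 probe sets ran from -0.13 to 0.16. Their 95% intervals reached as far as 0.85 (Uhrf1 in hepatitis), so a rise smaller than that in HCC could have been missed. Eed read 163.5 to 184.5 in control, with hepatitis at 169.1 to 194.6 and cirrhosis at 169.8 to 193. Suz12 had a wide spread in hepatitis, with 157.4, 167.1 and 96.5, against 106.9, 122.5 and 128.7 in control. Cirrhosis gave it 116.4, 133 and 128.1. Hdac2 read 293 to 396.5 in control, with hepatitis at 322.6 to 360.4 and cirrhosis at 387.1 to 438.2, and its differences from control were 0.02 and 0.26. Dnmt3b was dim throughout, with controls at 14.6 to 16.1, hepatitis at 12.6 to 15.1 and cirrhosis at 15.1 to 18.3.

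Dnmt3a 1384804_at and Hdac1 1388761_at were the members whose early-stage arrays all lay under the controls. Dnmt3a read 154.1, 142.1 and 147.2 in control, 135.2, 119.1 and 119.9 in hepatitis, and 115.4, 118.4 and 103.2 in cirrhosis. The arrays of both early stages lay below every control array, and the log2 differences were -0.22 ± 0.11 in hepatitis and -0.35 ± 0.11 in cirrhosis (limma adjusted p = 0.405 and 0.138). Hdac1 1388761_at read 140, 128.2 and 122.1 in control, 121, 106.6 and 103.7 in hepatitis, and 101.9, 101.8 and 81.9 in cirrhosis. Its differences were -0.21 ± 0.19 and -0.4 ± 0.19 (limma adjusted p = 0.712 and 0.343). Having 2 of 13 probe sets wholly below control compares with 14.7% of all probe sets in hepatitis and 17.9% in cirrhosis.

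Hdac1 1396820_at did the opposite of the gene's other probe set. It read 32.7, 36.3 and 35 in control, 80.8, 63.6 and 44.5 in hepatitis, and 70.6, 72.4 and 67.1 in cirrhosis. In both early stages all arrays were above all controls, and in cirrhosis they lay close together at a ratio of means of 2.02. The difference was 0.76 ± 0.17 in cirrhosis (limma adjusted p = 0.04) and 0.61 ± 0.17 in hepatitis (0.0936). The cirrhosis call was lost when any 1 of the 3 cirrhosis arrays, any 1 of the 3 controls or hepatitis replicate 2 was left out, at adjusted p of 0.0585 to 0.141. Across the 12 arrays the 2 Hdac1 probe sets had a Pearson r of -0.63, and of -0.62 over the 9 arrays that were not HCC. Which part of the Hdac1 transcript each probe set covers is not stated in any source used here, so a direction for Hdac1 as a gene cannot be stated. The 2 brighter Ezh2 probe sets had r = 0.97 over 12 arrays and 0.69 over those 9, and the Dnmt3a pair had 0.43 and 0.27.

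Among the diseased stages, the differences that passed the test were those that involved HCC. HCC against cirrhosis called 9 of 13 probe sets, 8 higher (17.5% of all probe sets) and 1 lower (14.8%). HCC against hepatitis also called 9, with 8 higher (15.5%) and 1 lower (13.4%). These comparisons share the HCC arrays with each other and with the comparison against control. Cirrhosis against hepatitis called 0 of 13 (0.651% of all probe sets), with 0 also at an unadjusted p under 0.05 (10.5%).

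Set against cirrhosis, Uhrf1 and Ezh2 1395697_at were higher by 1.46 ± 0.31 and 1.51 ± 0.25 on the log2 scale (limma adjusted p = 0.00575 and 0.00162). No ratio is given for Uhrf1, whose cirrhosis arrays were all under 16. Dnmt3a 1384804_at was higher by 1.27 ± 0.11 (limma adjusted p = 7.12e-05), with 272.6, 253.9 and 363.1 in HCC and 115.4, 118.4 and 103.2 in cirrhosis. Hdac1 1388761_at, at 258.7, 134.6 and 155.7 in HCC and 101.9, 101.8 and 81.9 in cirrhosis, was called higher here, by 0.79 ± 0.19 (limma adjusted p = 0.0101). Hdac1 1396820_at, at 30, 21.8 and 15.3 in HCC and 70.6, 72.4 and 67.1 in cirrhosis, was called lower, by -1.18 ± 0.17 (limma adjusted p = 0.000712). With only HCC and cirrhosis in the fit, Hdac1 1388761_at at 0.79 and Eed at 0.58 lost their calls (limma adjusted p = 0.0717 and 0.057), and Hdac1 1396820_at kept its own. Hdac2 differed by 0.12 (95% interval -0.29 to 0.53), with 388.3, 438.2 and 387.1 in cirrhosis, and Dnmt3b by -0.05.

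Against hepatitis the differences were 0.9 ± 0.2 for Dnmt1, 1.26 ± 0.31 for Uhrf1 and 1.14 ± 0.11 for Dnmt3a 1384804_at. The PRC2 genes were higher by 0.56 ± 0.13 (Eed), 0.68 ± 0.19 (Suz12) and 1.02 ± 0.23 and 1.31 ± 0.25 (Ezh2). Suz12 lost its call in this comparison without HCC replicate 1 or replicate 3, with limma adjusted p of 0.0607 and 0.0708, and with array weights (0.0902). Hdac1 1388761_at at 0.61 ± 0.19 was close to the threshold (limma adjusted p = 0.037) and lost its call without any 1 of the 3 controls, any 1 of the 3 hepatitis arrays, or cirrhosis replicate 1 or 2. Hdac1 1396820_at was lower by -1.03 ± 0.17 (0.00169). With only HCC and hepatitis in the fit 2 of the 9 calls were left, Dnmt3a 1384804_at and Hdac1 1396820_at. Over all 31042 probe sets the calls fell as well, from 8990 to 3793.

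A test of any difference among the 4 groups (limma's moderated F test) called 9 of the 13 probe sets, while it called 33.2% of all probe sets. The count was 5 without HCC replicate 3, and over all probe sets it went from 10303 to 9064. The 4 that it did not call were Dnmt3a 1392678_a_at, Dnmt3b, Ezh2 1395543_at and Hdac2.

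Other genes of the same pathways were called in both directions, and the medians of their lists ran from 0.06 to 0.36. For each listed gene the probe set with the highest mean was used; over all 14217 genes so represented, 19.1% were called higher in HCC against control and 18.2% lower. Of 17 readers, removers and cofactors of DNA methylation, 7 were higher and 1 was lower, with a median difference of 0.15. Zfp57, which keeps imprinted regions methylated, was higher by 1.62, the methylcytosine oxidase Tet3 by 0.97, and the methyl-CpG binding genes Mbd2 and Mbd1 by 0.87 and 0.5. Among 8 other PRC2 subunits and lysine 27 demethylases 4 were higher and 0 lower, with a median of 0.36. These were the histone-binding subunit Rbbp7 (1.53) and the accessory subunits Mtf2 (1.03), Jarid2 (0.62) and Aebp2 (0.35). Among 17 subunits of PRC1, the complex that ubiquitinates histone H2A, 4 were higher and 2 lower, with a median of 0.17. Among those called, the largest differences were those of Kdm2b (1.01), Pcgf5 (-0.63), Phc2 (0.61) and Cbx7 (0.5).

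The remaining deacetylases were split. Of 12 measured, 3 were higher and 2 lower, with a median of 0.06. Sirt3, a mitochondrial deacetylase, was lower by -1.59 and Hdac11 by -0.48, while Hdac7 (0.84) and Sirt6 (0.52) were higher. Of 18 partners of HDAC1 and HDAC2 in NuRD, Sin3 and CoREST, 5 were higher and 1 lower, with a median of 0.22. The histone demethylase Kdm1a rose by 1.06 and its CoREST partner Rcor1 by 0.89, Suds3 of the Sin3 complex was higher by 0.7, and Sin3b was lower by -0.58. Of 10 genes of histone H3 lysine 9 methylation and HP1, 4 were higher and 0 lower, with a median of 0.31. They were the chromatin remodeller Atrx (1.05), the HP1 genes Cbx5 (0.91) and Cbx1 (0.62), and the methyltransferase Ehmt1 (0.86).

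In the earlier stages few genes of these 6 lists passed the test against control, as over all genes, of which 2% were called lower in hepatitis and 1.99% in cirrhosis. Sirt3 was lower in cirrhosis (-1.02, limma adjusted p = 0.0121), Mta1 of NuRD in hepatitis (-0.61, 0.026), and Setdb1, a lysine 9 methyltransferase, in hepatitis (-0.67, 0.0247) and cirrhosis (-0.55, 0.0475). With only HCC and control in the fit, the counts of genes called higher in HCC were 5 (DNA methylation), 2 (PRC2), 4 (PRC1), 2 (deacetylases), 2 (partners) and 1 (lysine 9). Single arrays also moved these counts: DNA methylation had 4 without control replicate 2, PRC1 had 7 without HCC replicate 2, and PRC2 had 2 without control replicate 3 or HCC replicate 3. The partners had 2 without control replicate 3, and 3 without control replicate 2, cirrhosis replicate 1 or 2, or HCC replicate 3. The counts called lower dropped to 0 for DNA methylation and the partners, and to 1 for PRC1 and the deacetylases, without single arrays that included control replicate 1 or 2.

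**Figure D3:**
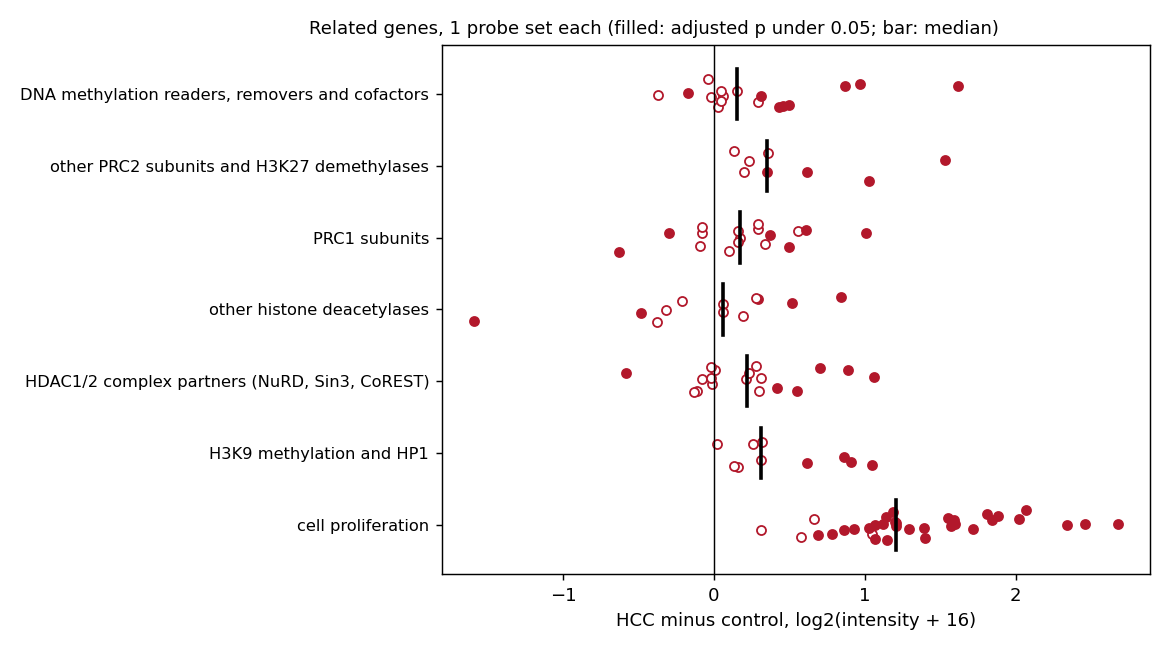
Log2 difference between HCC and control for each measured gene of 6 lists of related chromatin genes and of the cell proliferation list, 1 point per gene, filled where limma's adjusted p is under 0.05, with the list's median as a bar. The medians of the 6 chromatin lists lie between 0.06 and 0.36, and that of the proliferation list at 1.21.

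Most cell division genes were higher in HCC, as were the called members. Of 34 measured genes of replication and mitosis, 30 were called higher in HCC than in control and 0 lower, with a median difference of 1.21. The cyclin gene Ccna2 was higher by 2.68, the mitotic activator Cdc20 by 2.46, the proliferation marker Mki67 by 2.34 and the kinase Cdk1 by 2.07. The count was 15 with only HCC and control in the fit, and 22 to 34 when 1 array at a time was left out. The mean log2 level of the 34 genes was 5.89, 6.06 and 6.37 on the control arrays and 6.71, 6.22 and 6.01 in hepatitis. It was 5.83, 6 and 5.89 in cirrhosis, while the 3 HCC arrays had 7.86, 6.79 and 7.78. Not called in HCC against control were Ccnb2, Pcna, Birc5 and E2f1 (limma adjusted p = 0.0506 to 0.157). In hepatitis against control, where no member was called, Tyms alone of the list was called, higher by 1.09 (limma adjusted p = 0.00529). Over all genes 1.72% were called higher there. Tyms was also called lower in cirrhosis than in hepatitis, by -1.05 (limma adjusted p = 0.0132).

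The order of the arrays was alike for proliferation and for many members. HCC replicate 2, the lowest HCC array for proliferation, was the lowest HCC array for 9 of the 13 probe sets, including all 7 called against control. The same array was the lowest of HCC for 30.7% of all probe sets, and for 59.5% of those called higher in HCC than in control. It also lay nearest to the other groups on the first principal component (45.1) and had the highest HCC means of hepatocyte (12.42) and endothelial (7.27) markers. For Uhrf1 the highest HCC array was 3.39 times the lowest. Without HCC replicate 2 the differences from control were 1.85 for Uhrf1, 1.79 for Ezh2 1395697_at, 1.3 for Dnmt1 and 1.02 for Suz12. Hepatitis replicate 1, the highest array for proliferation outside HCC, was the highest of those 9 arrays for 7 of the 13 probe sets and for 13.6% of all probe sets. The 7 include every Ezh2 probe set, of which 1395543_at was under 16 on all arrays. They also include Hdac1 1396820_at, which was lowest in HCC and so did not follow proliferation there. Hepatitis replicate 1 was also the highest of the 9 for cholangiocyte (7.5) and stellate cell (7.97) markers. For Dnmt3a 1384804_at all controls lay above hepatitis replicate 1. The part of proliferation or of these markers in the members' differences was not tested, and since the HCC arrays form a separate cluster no correlation across all arrays is given for it.

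**Figure D4:**
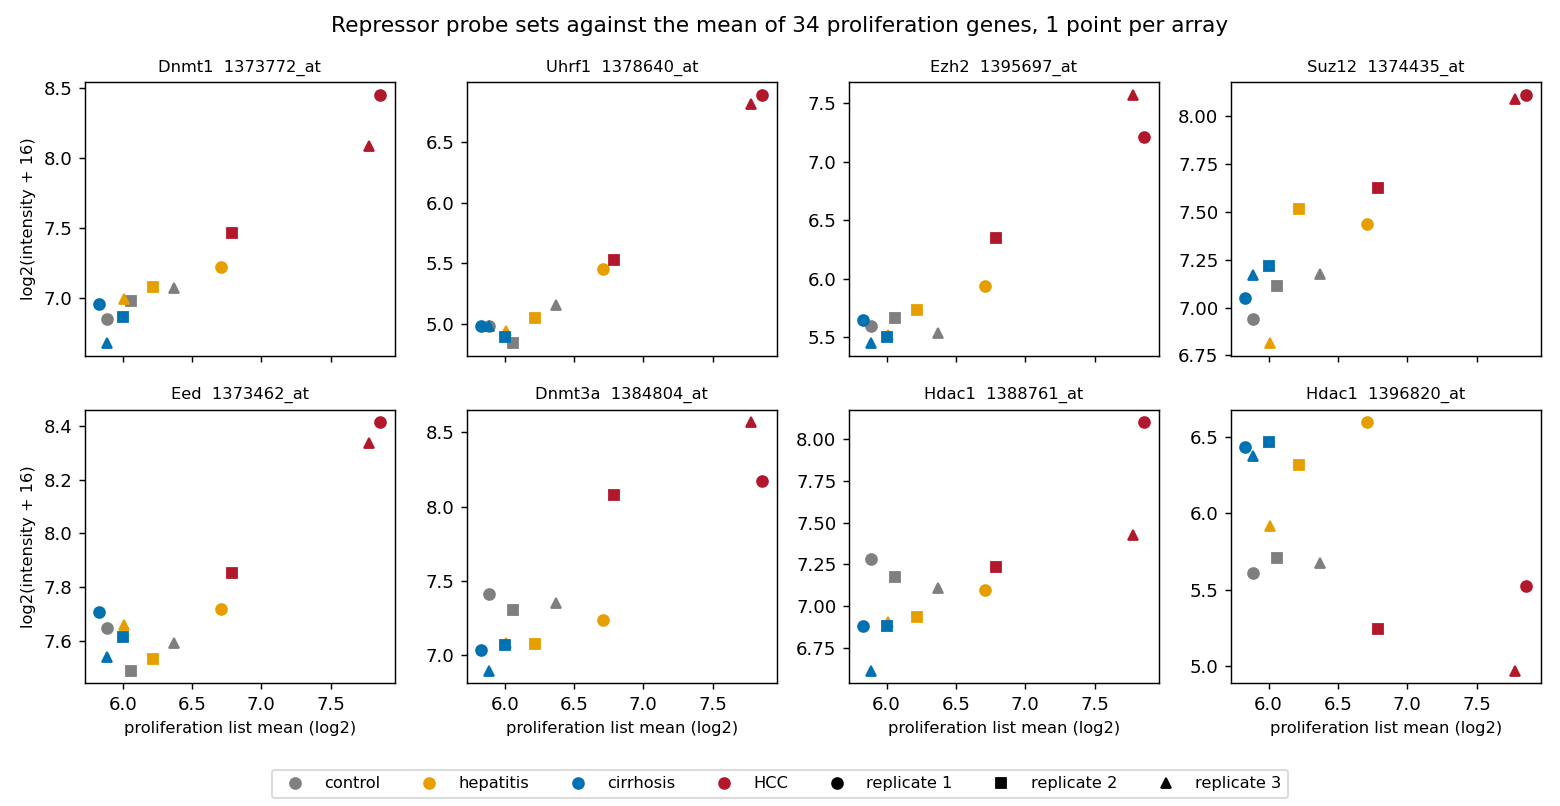
Level of 8 member probe sets, log2(intensity + 16), against the mean log2 level of the 34 proliferation genes, 1 point per array, coloured by group and shaped by replicate. In the Dnmt1, Uhrf1, Ezh2, Suz12 and Eed panels HCC replicates 1 and 3 sit at the upper right with HCC replicate 2 between them and the other 9 arrays, whereas Hdac1 1396820_at has its HCC points lowest.

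Some cell type markers were also called between the groups. Over all 14217 genes 1.65% were called higher and 1.99% lower in cirrhosis against control, and 1.72% and 2% in hepatitis. For HCC against control the shares were 19.1% higher and 18.2% lower. In cirrhosis against control 4 of 4 erythroid markers and 1 of 8 endothelial markers were lower. Of 4 B and plasma cell markers 1 was higher there, the plasma cell gene Jchain, by 2.58. In hepatitis 1 of 4 erythroid and 1 of 10 macrophage markers (Cd14 by -1.34) were called lower. The median difference of the 10 macrophage markers was nevertheless above control, at 0.42. Called higher in hepatitis were 2 of 4 B and plasma cell markers (Jchain by 2.05) and 1 of 10 stellate cell markers. These moved beside the early-stage values of Hdac1 1396820_at. In HCC against control 4 of 8 hepatocyte markers, 5 of 10 macrophage markers, 4 of 8 endothelial markers and 4 of 4 erythroid markers were lower. The macrophage mean was 7.71 to 8.18 in HCC and 8.57 to 9.63 in control, and 1 of its 10 markers was higher. Of the T and NK cell markers 4 of 11 were higher, with means of 5.37 to 5.98 in HCC and 5.15 to 5.62 in control. Stellate cell markers had 4 higher and 1 lower of 10, B and plasma cell markers 1 higher of 4, and cholangiocyte markers 1 higher of 7. The cholangiocyte mean reached 9.34 on HCC replicate 1, in a range of 6.69 to 9.34 in HCC and 6.29 to 6.36 in control. Muscle markers had 0 of 6 called, although control replicate 2 stood at 7.46. Of all these markers Cd79b (B cells) and Myh4 (muscle) were under 16 on every array.

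The genes whose levels tracked each member most closely were found by Pearson r over the 12 arrays, which share the large step between HCC and the rest, so r over the 9 other arrays is given after each. For Uhrf1 they were Mad2l1 (0.993, then 0.92), Lig1 (0.99, 0.87) and Cenpt (0.988, 0.8). For Ezh2 they were Mad2l1 (0.995, 0.94), Kif2c (0.994, 0.94) and Cdca5l1 (0.993, 0.9). For Dnmt1 they were Cdca5l1 (0.99, 0.87), Septin8 (0.987, 0.82) and Ezh2 (0.985, 0.83), so 1 member was among the nearest genes of another. For Dnmt3a they were Scamp5 (0.99, 0.86), Tmem67 (0.989, 0.87) and Pwwp2a (0.988, 0.93). For Eed they were Nsa2 (0.989, 0.81), Mical1 (0.987, 0.82) and Gnb2 (0.983, 0.74), and for Suz12 Hnrnpa2b1 (0.977, 0.89), Ccdc69 (0.961, 0.83) and Memo1 (0.961, 0.84). For Hdac1 1388761_at they were Hnrnpl (0.987, 0.98), Anapc1 (0.97, 0.89) and Dctn6 (0.963, 0.92).

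The members also differed in how far they tracked each other outside HCC. Over 12 arrays Dnmt1 and Uhrf1 had r = 0.97, and over the 9 other arrays 0.67. Uhrf1 and Ezh2 1373290_at had 0.99 and 0.82. Eed, in contrast, had 0.95 with Ezh2 1373290_at over 12 arrays and 0.18 over the 9, so nearly all of that likeness lay in the step to HCC. Hdac1 1388761_at and Dnmt3a 1384804_at had 0.79 over 12 arrays and 0.97 over the 9, the closest pair of members before HCC. The 9 arrays hold group steps too: mean intensity in control, hepatitis and cirrhosis was 130, 110 and 95.2 for this Hdac1 probe set and 148, 125 and 112 for Dnmt3a. Uhrf1 was under 16 on 6 of the 12 arrays, and its highest array outside HCC was hepatitis replicate 1 at 27.9. Its r values over the 9 arrays, here and above, therefore rest on dim signal.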

How the data were processed

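The authors deposited 1 intensity on a linear scale for each probe set of each array. MAS5 and RMA are both named in the submitters' processing notes, and which one made the values, and in which version, was not given in the sources used here. Per the labels, RNA came from a TRIzol extraction and carried a biotin label. The table held 31099 probe sets, of which 57 array controls were left out, and 0 columns of values were unused. Of the remaining probe sets 20826 had 1 gene symbol in the platform's annotation, 436 had several and 9780 had none. The platform's annotation can be old, and all 9 member symbols matched RefSeq.

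Values were analysed as log2(intensity + 16), which understates differences of dim probe sets. The tests were limma 3.58.1 in R 4.3.3 (lmFit, contrasts.fit, eBayes) on all probe sets and all 12 arrays, with 4 group means, 6 contrasts and a moderated F test, 2-sided, with Benjamini-Hochberg adjustment over the 31042 probe sets. The prior had 1.6 degrees of freedom. The test code was first tested on simulated data. Errors are standard errors of the fit, or standard deviations where marked SD. An exact permutation test of 3 against 3 arrays cannot go below p = 0.1 and was not used. Python 3.11.15 was used for tables and figures, with numpy 2.4.6, pandas 2.3.3 and matplotlib 3.10.9.

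The members, lists and markers were chosen with earlier results of these data known. All 13 member probe sets were described. Of each list of related genes up to 4 called genes were named, by absolute log2 difference in HCC against control, on the probe set with the highest mean. The further genes named for the earlier stages and for proliferation were chosen after their values were seen. Likeness was ranked over probe sets of 1 other gene whose mean lay in the upper 70%, for the brightest probe set of each member called by the F test, and the 3 nearest genes were named. Replicate numbers in the sample titles were not treated as pairing the arrays in the main fit. Deviations from the group mean had a median r of -0.01 for the same number (-0.22 to 0.34) and 0.01 for different numbers (-0.31 to 0.19). The highest r, 0.34, was that of hepatitis replicate 1 with HCC replicate 1.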

Additional observations from a re-analysis of the deposited data

Results flagged for a closer look

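For 3 member probe sets the later and the earlier stage differed from control in opposite directions, and the difference between the stages passed limma's test itself. The stages share the control arrays.

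Dnmt3a 1384804_at was above control in HCC (0.92 on the log2 scale) and below it in cirrhosis (-0.35) and hepatitis (-0.22). The difference of HCC from cirrhosis was 1.27 (limma adjusted p = 7.12e-05) and from hepatitis 1.14 (0.000142). The differences of cirrhosis and hepatitis from control did not pass the test.

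Hdac1 1388761_at was at 0.4 over control in HCC, -0.4 in cirrhosis and -0.21 in hepatitis, none of them called. HCC differed from cirrhosis by 0.79 (limma adjusted p = 0.0101) and from hepatitis by 0.61 (0.037). With only the 2 groups in the fit both calls were lost (limma adjusted p = 0.0717 and 0.159).

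Hdac1 1396820_at ran the other way, with -0.42 in HCC, 0.76 in cirrhosis and 0.61 in hepatitis, of which the cirrhosis value was called. HCC differed from cirrhosis by -1.18 (limma adjusted p = 0.000712) and from hepatitis by -1.03 (0.00169).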

How the results depend on the processing

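Other added constants (1 and 64), quantile normalization, leaving out the dimmest 30% of probe sets, a trended robust prior and array weights kept all 7 calls of HCC against control, as did leaving out each of the 12 arrays in turn. With 1 probe set per gene the 6 genes concerned were all called. Of the single values 649 kept direction and side of the threshold, 34 lost the call, 6 gained it and 5 reversed. Hdac2 gained a call under quantile normalization (0.56, limma adjusted p = 0.0381).

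Counts of members called that moved by over 1.5 times were as follows, and the cause was not tested except where stated. With only the groups compared in the fit, which leaves fewer arrays to estimate the spread, 3 were called in HCC against control, 2 in HCC against hepatitis and 3 in cirrhosis against control. With array weights the counts were 1 in hepatitis and 3 in cirrhosis against control. In cirrhosis against control 0 were called with 1 probe set per gene, which leaves Hdac1 1396820_at out, and 0 with the mean of a gene's probe sets. That mean joins unlike probe sets, and reversed Hdac1 1388761_at to -0.01, -0.19 and -0.21 (HCC against control, cirrhosis and hepatitis) and dim Ezh2 1395543_at to 0.81. Dnmt3b in HCC against control reversed to -0.08 without HCC replicate 3 and ranged up to 0.15 without replicate 1.

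Leaving out 1 array at a time gave 7 to 9 calls in HCC against control, 9 to 9 against cirrhosis and 8 to 10 against hepatitis, 0 to 1 in hepatitis and 0 to 2 in cirrhosis against control, 0 to 0 in cirrhosis against hepatitis, and 5 to 9 for any stage, with 5 without HCC replicate 3. The replicate number as a block changed none of these counts, with 7 of 13 called in HCC against control.

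Counts over all probe sets also moved. With only the groups compared they were 4994 instead of 9237 in HCC against control, 3793 instead of 8990 against hepatitis, 6499 instead of 10008 against cirrhosis, 4949 instead of 1125 in cirrhosis against control, and 466 instead of 202 in cirrhosis against hepatitis. With array weights they were 3468 instead of 916 in hepatitis against control, 4946 in cirrhosis against control and 1181 in cirrhosis against hepatitis. Under the replicate block cirrhosis against control had 717 and cirrhosis against hepatitis 133. Leaving out arrays gave 297 to 1652 in hepatitis, 194 to 1884 in cirrhosis and 6642 to 10638 in HCC against control. The number of arrays and the dim signal of Dnmt3b, of Uhrf1 outside HCC and of Ezh2 1395543_at limit the precision. The counts of related and proliferation genes under these settings were alternatives chosen after seeing the data.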
